A study of Rattus norvegicus with 6 samples.

Results

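The insulin-like growth factor (IGF) axis of rat cortical neural progenitors is described here through 10 genes: the ligands *Igf1* and *Igf2*, the receptors *Igf1r*, *Insr* and *Igf2r*, and the binding proteins *Igfbp2* to *Igfbp6*. The members were chosen by gene symbol, as named parts of the axis, with the FPKM of these same libraries already known from an earlier analysis, so their levels and differences are given as a description and carry no test. All 10 were found among the 17337 gene names listed in each library, and each had a value above 0 in every library and a mean, over the replicates, of 1 FPKM or more. FPKM is a fragment count divided by transcript length and by library depth. Cells came from cortices of Sprague Dawley rats at embryonic day 14 (E14). They were grown in Knockout DMEM/F-12 with StemPro neural supplement, GlutaMAX, 20 ng/ml bFGF and 20 ng/ml EGF and were harvested following a second passage. Embryos were of either sex, all samples share this 1 untreated condition, and whether the replicates came from separate litters or pooled animals is not given in the sources used here. PolyA-selected mRNA was sequenced in 2 biological replicates, called A and B here. Each has a pair of libraries (A1, A2, B1, B2), taken as technical libraries from their labels.

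IGF-I and IGF-II are secreted peptides that act mainly through the receptor tyrosine kinase encoded by *Igf1r*, and IGF-II can also signal through the insulin receptor, encoded by *Insr*. The receptor encoded by *Igf2r*, the cation-independent mannose 6-phosphate receptor, carries IGF-II to lysosomes and has no kinase. The IGF binding proteins hold the peptides outside the cell, extend their life and limit or assist their access to the receptors. In the developing brain the axis is known for its part in progenitor proliferation, survival and brain size, and IGF-II is known to be made by the choroid plexus, meninges and vessels.

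Promoter sequences are shown for the 4 binding protein genes with the highest FPKM, so that the most abundant binding proteins can be compared, and for *Igf2*, the member with the largest difference between the replicates. They are RefSeq sequences of build GRCr8, whereas the gene positions given further on are those of the deposited tables on rn6, so the 2 sets of positions are not comparable. Each run is the 150 bases before the annotated start, 5′ to 3′ on the strand of the gene, and capitals mark a motif, which is TATAAA in *Igfbp4*, the letters TATATA in *Igfbp3* and GGGCGG in *Igfbp2* and *Igf2*. For *Igf2* the window of the downstream of the 2 annotated starts is shown. The stretches lie at chr9:81864661-81864810 on the plus strand for *Igfbp2*, at chr14:86277945-86278094 on the minus strand for *Igfbp3*, at chr10:84491321-84491470 on the plus strand for *Igfbp4*, at chr9:81914188-81914337 on the minus strand for *Igfbp5* and at chr1:207250476-207250625 on the minus strand for *Igf2*.
Igfbp2: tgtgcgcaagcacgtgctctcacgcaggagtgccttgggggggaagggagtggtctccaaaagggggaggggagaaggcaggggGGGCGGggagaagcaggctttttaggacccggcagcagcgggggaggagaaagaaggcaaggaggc
Igfbp3: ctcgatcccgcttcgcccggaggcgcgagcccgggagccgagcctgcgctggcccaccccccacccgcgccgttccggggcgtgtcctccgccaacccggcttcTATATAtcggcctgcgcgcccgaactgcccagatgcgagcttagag
Igfbp4: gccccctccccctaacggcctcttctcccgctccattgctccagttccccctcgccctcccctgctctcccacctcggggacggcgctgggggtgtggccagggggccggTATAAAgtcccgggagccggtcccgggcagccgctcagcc
Igfbp5: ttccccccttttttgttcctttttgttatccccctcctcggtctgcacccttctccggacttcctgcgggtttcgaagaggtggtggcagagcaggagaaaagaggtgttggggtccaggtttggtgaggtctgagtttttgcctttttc
Igf2: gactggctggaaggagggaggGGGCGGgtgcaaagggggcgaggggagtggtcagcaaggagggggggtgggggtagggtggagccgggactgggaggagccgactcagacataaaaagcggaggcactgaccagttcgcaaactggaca

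The 10 members had 11 promoter windows of 300 bases, 250 before and 50 after the start, because *Igf2* has an upstream and a downstream start. These were searched on both strands for TATAAA and TATATA, which can overlap each other, and for GGGCGG, the letters of a GC box. TATAAA was found in the window of *Igfbp4* alone among the members, with its first base 40 bases before the start, and in 14.2% of the 33469 windows of all genes. TATATA was found in the *Igfbp3* window alone, 46 bases before the start, and in 6.15% of all windows. GGGCGG lay in 5 of the 11 member windows, both of *Igf2* and those of *Igf1r*, *Igf2r* and *Igfbp2*, and in 33.1% of all windows. In *Igfbp2* it began 66 bases before the start. *Igfbp5* held none of the 3 motifs. The GC content of the windows ran from 48.3% in *Igf1* to 78.0% in *Igf1r*, beside a median of 51.7% over all windows. A match describes the letters in the window and is no evidence of a bound factor or of an active start.

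The depth of the libraries and their cell type markers bear on every value that follows. Read totals were not used, so the coverage behind 1 FPKM was taken as a measure of depth, and it was 22.7 to 24.4 in A1, A2 and B1 and 6.83 in B2, or 28.1% of B1. All 10 neural progenitor markers, among them *Sox2*, *Vim* and *Fabp7*, reached a mean of 1 FPKM, as did 10481 of all 17337 names. All 14 meningeal and mesenchymal and all 6 astroglial markers did so too, so this bar does not set progenitors apart. Of the 10 progenitor markers, 8 did not meet the rule used for the members in either direction. *Fabp7*, with 16800 and 18557 FPKM in A and 6520 and 5485 in B, and *Hes5* were higher in A by that rule. With any size of difference, *Sox2*, *Hes1* and *Notch1* also had both libraries of A above both of B, the other 5 overlapped, and the median log2 difference of the 10 was -0.33. *Fabp7* carried most of the summed level. The other 9 markers summed to 4250 and 4570 FPKM in A and 3594 and 5388 in B, which overlap. *Vim* made up most of that sum, with 2882 and 3171 FPKM in A and 2652 and 4458 in B. The overlap of the sum therefore says little of the smaller markers in that list. A set of 14 markers of meningeal and mesenchymal cells was also present, with none at 0, and summed to 748 to 766 FPKM in A and 2738 to 3610 FPKM in B. Of these 14, 13 were higher in replicate B by the rule, beside 4.78% of all names, and *Prrx1* was not. The 8 endothelial markers summed to 1.11 to 1.27 FPKM in A and 2.50 to 5.23 FPKM in B, and the 9 microglial markers to 0.518 to 1.17 and 2.67 to 2.78 FPKM, with *Cx3cr1*, *Itgam*, *P2ry12*, *Tyrobp* and *Ptprc* listed at 0 in at least 1 library. The 9 neuronal markers summed to 165 and 189 FPKM in A and 145 and 164 FPKM in B, close to each other but without overlap. The summed FPKM of 5 pericyte markers, 44.5 to 59.7, and of 6 astroglial markers, 935 to 1511, overlapped between A and B. Some single markers of these lists did not overlap. *S100b* was higher in A by the rule, with 365.3 and 402.7 FPKM in A and 202.6 and 148.9 in B. Short of the rule, *Notch3* and *Slc1a2* lay apart toward A and *Pdgfrb*, *Aqp4* and *Gja1* toward B. The 7 markers of the oligodendrocyte lineage summed to 265 to 290 FPKM in A and 360 to 702 FPKM in B, and the 6 of the choroid plexus to 107 to 108 and 15.1 to 50.9 FPKM. In bulk RNA, a larger number of cells of a type and more RNA per cell cannot be told apart.

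*Igfbp2* was by far the highest member. It encodes the binding protein that predominates in the fetal brain and cerebrospinal fluid, and it maps to chromosome 9, positions 80118029 to 80144801 of the plus strand. Its level was 1606 FPKM in A1 and 1786 in A2, against 1753 in B1 and 2916 in B2, a mean of 2015 ± 452 FPKM (SD, n = 2 biological replicates, technical libraries averaged first). The 2 replicates overlapped, since B1 lay between A1 and A2, and B2 stood above the other 3. By its mean *Igfbp2* ranked 20 among all 17337 gene names. The difference of replicate B from A was 0.46 on the log2(FPKM + 1) scale, a scale that understates the change of low genes, and 0.05 without B2.

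The order of the 10 mean levels was *Igfbp2*, *Igfbp4*, *Igf2*, *Igfbp3*, *Igfbp5*, *Igf1*, *Igf2r*, *Igfbp6*, *Igf1r* and *Insr*. *Igfbp2* and its neighbour *Igfbp4* did not overlap over the 4 libraries, and neither did *Igf1r* and *Insr* at the lower end. Every other pair of neighbours in this order had overlapping ranges over the 4 libraries. Within single libraries *Igf2* lay above *Igfbp3*, *Igf1* above *Igf2r*, *Igf2r* above *Igfbp6* and *Igfbp6* above *Igf1r* in all 4, while the order of *Igfbp4* and *Igf2*, of *Igfbp3* and *Igfbp5* and of *Igfbp5* and *Igf1* differed between libraries. Within replicate A, by the deposited FPKM, *Igfbp5* was the third member and *Igf2* the fourth, whereas within replicate B, again by FPKM, *Igf2* was the second and *Igfbp5* the sixth. The 3 receptors and *Igfbp6* were the 4 lowest members in both replicates by FPKM. The places of *Igf1* and *Igf2*, and with them those of their neighbours, differ in both replicates when the deposited coverage is used, as given with the ligands.

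**Figure D1:**
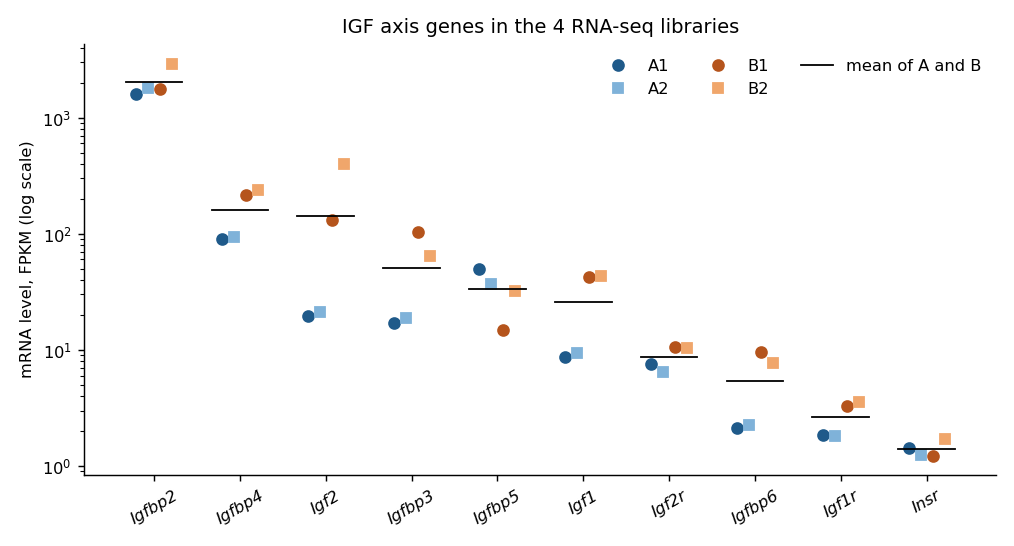
FPKM of the 10 members (log scale) in the 4 libraries, with 1 point for each library and a line at the mean of replicates A and B. *Igfbp2* lies between 1606 and 2916 FPKM, far above *Igfbp4* at 89.7 to 237.5, while *Insr* lies lowest at 1.23 to 1.72.

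Both ligands were higher in replicate B than in replicate A. *Igf2*, the fetal growth factor expressed from the paternal allele in most tissues, maps to chromosome 1, positions 215828102 to 215838209 of the minus strand. Its level was 19.5 FPKM in A1 and 21.1 in A2, against 130.8 in B1 and 399 in B2, a mean of 143 ± 173 FPKM (SD, n = 2). The libraries of A nearly coincided, those of B were both higher, and B2 was 3.05 times B1. Replicate B was 13.1 times replicate A, a log2 difference of 3.64, which was 2.63 without B2, and the mean level without B2 was 75.6 FPKM. Among the 10481 gene names with a mean of at least 1 FPKM, this difference stood in place 3 counted from the largest difference toward B. The SD of *Igf2* exceeded its mean, so a single level for the culture system cannot be given from these data.

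*Igf1*, which encodes the ligand that binds the *Igf1r* product with highest affinity, maps to chromosome 7, positions 28412198 to 28486609 of the plus strand. Its level was 8.66 FPKM in A1 and 9.41 in A2, against 42.0 in B1 and 43.3 in B2, a mean of 25.8 ± 23.8 FPKM (SD, n = 2). Here both pairs of technical libraries lay close together and the replicates did not overlap, with B at 4.72 times A and a log2 difference of 2.12. The ratio of *Igf2* to *Igf1* TPM, in which each library sums to the same total, was 2.25 in A1 and 2.24 in A2, against 3.11 in B1 and 9.22 in B2. *Igf2* was thus the more abundant ligand transcript per length in all 4 libraries. By coverage, described next, this ratio is higher in every library. *Igf2* and *Igf1* then have 16.4 and 3.09 FPKM in A1 and 331.7 and 15.4 FPKM in B2. The deposited coverage gives a second view of these levels. For 8 members the coverage divided by the coverage per FPKM of the library returned the deposited FPKM within 1% in every library, but for *Igf1* it returned only 35.6% to 35.8% and for *Igf2* 79.8% to 83.9% of it. By coverage the mean level of *Igf1* was 9.23 FPKM and that of *Igf2* 118 FPKM, and the share was nearly the same in A and B. The order of the members depends on this gap in both replicates. By coverage *Igf1* had 3.09 and 3.36 FPKM in A1 and A2, below *Igf2r*, and *Igf2* had 16.4 and 16.8 FPKM, below *Igfbp3*. In replicate B the mean of *Igf2* by coverage was 218 FPKM, below *Igfbp4* at 227 FPKM, and that of *Igf1* 15.2 FPKM, below *Igfbp5* at 23.6 FPKM, so that *Igf2* took place 3 and *Igf1* place 6 there.

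The receptor transcripts were low and showed smaller differences. *Igf1r*, the gene of the main signalling receptor, maps to chromosome 1, positions 128924921 to 129207049 of the plus strand and had 1.87 FPKM in A1 and 1.80 in A2, against 3.31 in B1 and 3.55 in B2 (mean 2.63 ± 1.13, SD, n = 2). *Insr*, at chromosome 12, positions 1682527 to 1816414 of the minus strand, had 1.44, 1.24, 1.23 and 1.72 FPKM in the same order of libraries (mean 1.41 ± 0.0914). *Igf2r*, at chromosome 1, positions 48176106 to 48264479 of the plus strand, had 7.56, 6.40, 10.5 and 10.3 FPKM (mean 8.69 ± 2.42). Both libraries of B lay above both of A for *Igf1r* and *Igf2r*, by 0.64 and 0.51 on the log2(FPKM + 1) scale, whereas the libraries overlapped for *Insr*, whose difference was 0.08 and turned to -0.07 without B2. The TPM ratio of *Igf1r* to *Insr* was 1.29 in A1 and 1.45 in A2, against 2.70 in B1 and 2.07 in B2, so *Igf1r* was the more abundant in each library. The coverage of *Insr* in B2 was 11.7 and that of *Igf1r* 24.3, the lowest among the members, which limits how small a difference can be read at these genes.

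The binding proteins did not share 1 direction between the replicates. *Igfbp3*, the gene of the main serum carrier of IGFs, maps to chromosome 14, positions 87457647 to 87465374 of the minus strand and had 17.1 FPKM in A1 and 18.7 in A2, against 104.4 in B1 and 64.3 in B2 (mean 51.1 ± 47.0, SD, n = 2). *Igfbp4*, whose product mostly restrains IGF action until it is cleaved by pappalysin, maps to chromosome 10, positions 86950555 to 86962563 of the plus strand and had 89.7, 94.4, 216.9 and 237.5 FPKM (mean 160 ± 95.6). *Igfbp6*, whose product prefers IGF-II, maps to chromosome 7, positions 143749385 to 143754017 of the plus strand and had 2.11, 2.24, 9.59 and 7.63 FPKM (mean 5.39 ± 4.55). For these 3 genes both libraries of B lay above both of A, and replicate B was 4.71, 2.47 and 3.96 times replicate A. The log2 differences were 2.17 for *Igfbp3*, 1.29 for *Igfbp4* and 1.60 for *Igfbp6*.

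*Igfbp5* was the 1 member that was lower in both libraries of replicate B. Its product binds extracellular matrix as well as IGFs, and the gene maps to chromosome 9, positions 80154230 to 80166813 of the minus strand. It had 49.4 FPKM in A1 and 37.2 in A2, against 14.7 in B1 and 32.4 in B2, a mean of 33.5 ± 14.0 FPKM (SD, n = 2). B2 was 2.21 times B1 and came close to A2, so the technical libraries of B differed by more than the nearest libraries of A and B. The log2 difference was -0.85, and it became -1.04 without A2, -1.50 without B2 and -0.41 without B1. *Igfbp2* and *Igfbp5* lie 9428 bp apart on rn6 with their 3′ ends facing each other, and *Igfbp2* did not share this lower level in B.

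A gene was counted as higher in a replicate when its mean was at least 1 FPKM, the replicates differed by at least 1 on the log2(FPKM + 1) scale and the libraries of A and B did not overlap. By this rule 5 members, *Igf1*, *Igf2*, *Igfbp3*, *Igfbp4* and *Igfbp6*, were higher in replicate B, where 4.78% of all 10481 gene names were. No member was higher in replicate A, where 1.42% of all names were, although *Igfbp5* met the rule there without A2 or without B2. With any size of difference, 7 members had both libraries of B above both of A, beside 28.1% of all names, and 1 member had both libraries of A above both of B, beside 32.0%. The median log2 difference was 0.97 for the 10 members and -0.03 for all names compared, for which the 5th and 95th percentiles were -0.66 and 0.97. Because the members were named with these values known, the counts describe the axis in these cultures and nothing more is read from them. With 2 biological replicates of 1 condition no test between groups was possible, and nothing but the replicate letter separates A from B in the labels.

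**Figure D2:**
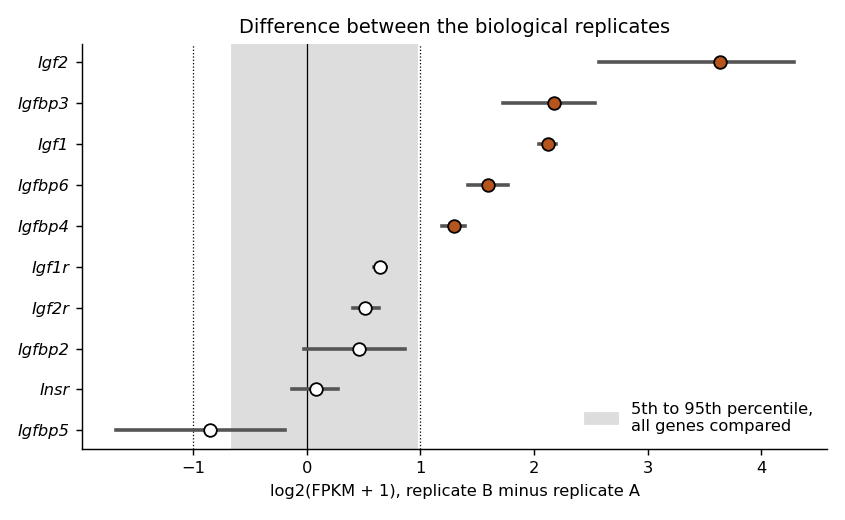
Difference of replicate B from replicate A on the log2(FPKM + 1) scale for the 10 members, as points, with bars from the lowest to the highest of the 4 pairs of a library of B and a library of A. Filled points are the 5 members counted as higher in B, dotted lines mark -1 and 1, and grey spans the 5th to 95th percentile of all names compared. *Igf2* lies farthest out at 3.64, and *Igfbp5* is the only replicate difference below 0, at -0.85.

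The 2 libraries of a replicate were taken as technical repeats of 1 culture from their labels alone, and this was not tested. Some cell type markers differed between B1 and B2, among them *Otx2* at 16.8 and 0 FPKM and *Olig1* at 523.1 and 236.9 FPKM. The spread within a pair was not read as a measure of the spread between cultures. Between A1 and A2, 16 of 10481 gene names, or 0.153%, differed by at least 1 on the log2(FPKM + 1) scale, and the median absolute difference was 0.11. Between B1 and B2, 293 names, or 2.80%, did so, and the median was 0.22. Among them were 2 members, *Igf2* at 1.60 and *Igfbp5* at 1.09, both higher in B2. *Igfbp2* was higher in B2 by 0.73, and *Igfbp3* was lower in B2, at -0.69. For *Igf1*, *Igf1r*, *Igf2r* and *Igfbp4* the 2 libraries of B differed by at most 0.13.

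The make-up of the binding protein pool was dominated by *Igfbp2* in every library. As a percent of the summed TPM of the 5 binding proteins, *Igfbp2* made up 91.0% in A1 and 92.1% in A2, against 83.5% in B1 and 89.5% in B2, a mean of 89.1 ± 3.58% (SD, n = 2). *Igfbp4* was the next in each, with 5.08%, 4.87%, 10.3% and 7.29%. The third place differed. It was held by *Igfbp5* in A1 and A2, with 2.80% and 1.92%, and by *Igfbp3* in B1 and B2, with 4.98% and 1.97%. *Igfbp6* had the smallest share in all 4 libraries, at 0.116% to 0.457%.

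**Figure D3:**
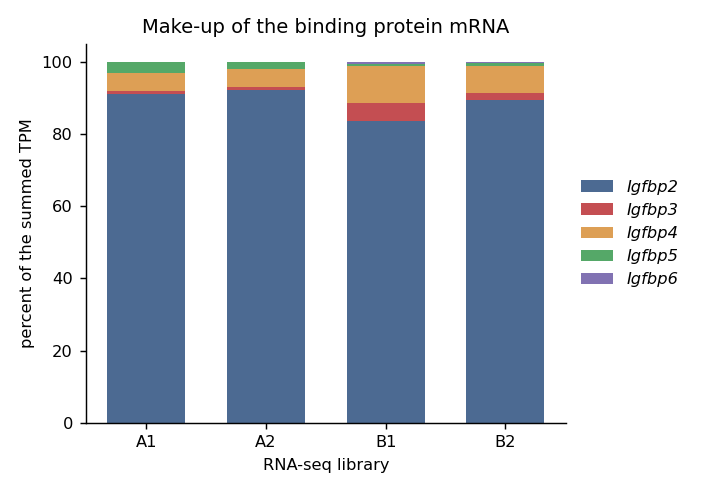
Percent of the summed TPM of *Igfbp2* to *Igfbp6* taken by each of the 5 genes in libraries A1, A2, B1 and B2. *Igfbp2* takes 83.5% to 92.1%, and the *Igfbp4* part is larger in both libraries of B, at 7.29% and 10.3%, than in A, at 4.87% and 5.08%.

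The balance of binding protein to ligand transcripts differed between the replicates. The summed TPM of *Igf1* and *Igf2* was 49.4 in A1 and 50.8 in A2, against 282.4 in B1 and 736 in B2, and that of the 5 binding proteins was 3095, 3223, 3429 and 5421. Binding protein transcripts therefore outnumbered ligand transcripts in every library, 62.7 times in A1 and 63.5 times in A2, against 12.1 times in B1 and 7.37 times in B2. Without *Igfbp2* the ratio was 5.63, 4.995, 2.00 and 0.773, so in B2 the other 4 binding proteins together had fewer transcripts than the ligands. These are ratios of mRNA that use the deposited ligand values, which the coverage puts lower, and protein was not measured.

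The 5 members higher in replicate B were higher together with the markers of meningeal and mesenchymal cells, whose summed FPKM in B was 4.19 times that in A, with *Col1a1* at 168.7 and 156.6 FPKM in A and 684.9 and 784.6 in B. Set against that sum, *Igf1* was 1.13% in A1 and 1.26% in A2, against 1.53% in B1 and 1.20% in B2, and *Igfbp6* was 0.275%, 0.299%, 0.351% and 0.212%. *Igfbp3* was 2.24%, 2.50%, 3.81% and 1.78%. For these 3 genes the percents of A and B overlapped. *Igf2* differed from them, with 2.55% in A1 and 2.82% in A2, against 4.78% in B1 and 11.1% in B2. *Igfbp4* was lower relative to the sum in B, with 11.7%, 12.6%, 7.92% and 6.58%. All these percents use the deposited FPKM. Coverage returned only 50% of it for the markers *Col1a2* and *Ogn* in every library. It also returned less than the deposited FPKM for *Igf1* and *Igf2*, as given above. The marker sum itself was 1.32 times as high in B2 as in B1, while *Igf2* was 3.05 times as high there. Most of the sum came from *Col1a1*, *Col1a2* and *Col3a1*, whose B2 to B1 ratios were 1.15, 1.25 and 1.21. Of the 14 markers, 10 had a ratio under 2, with a median of 1.29 over the 14. The other 4 were *Aldh1a2* at 5.18, *Foxc1* at 3.93, *Foxc2* at 3.31 and *Slc6a13* at 2.71. The *Igf2* ratio lay within the range of these 4. *Foxc1* had 29.4 and 115.3 FPKM and *Aldh1a2* 71.2 and 368.8 FPKM in B1 and B2. The endothelial and microglial sums were also higher in B, at the low levels given above, and the choroid plexus sum was lower. In that list 3 markers reached a mean of 1 FPKM, of which 2 were higher in A by the rule and 1 in B. *Ttr* had 80.7 and 82.6 FPKM in A and 26.4 and 3.03 in B. *Otx2* had 23.7 and 22.4 FPKM in A and 16.8 and 0 in B. The 1 higher in B was *Aqp1*, with 1.78 and 1.79 FPKM in A and 7.04 and 11.4 in B, the largest of the 3 in B2. Further, *Pdgfra*, fixed as an oligodendrocyte lineage marker and also found in mesenchymal cells, had 9.50 and 9.09 FPKM in A and 59.5 and 59.4 in B. The part of such cells in the levels of the members was not tested.

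**Figure D4:**
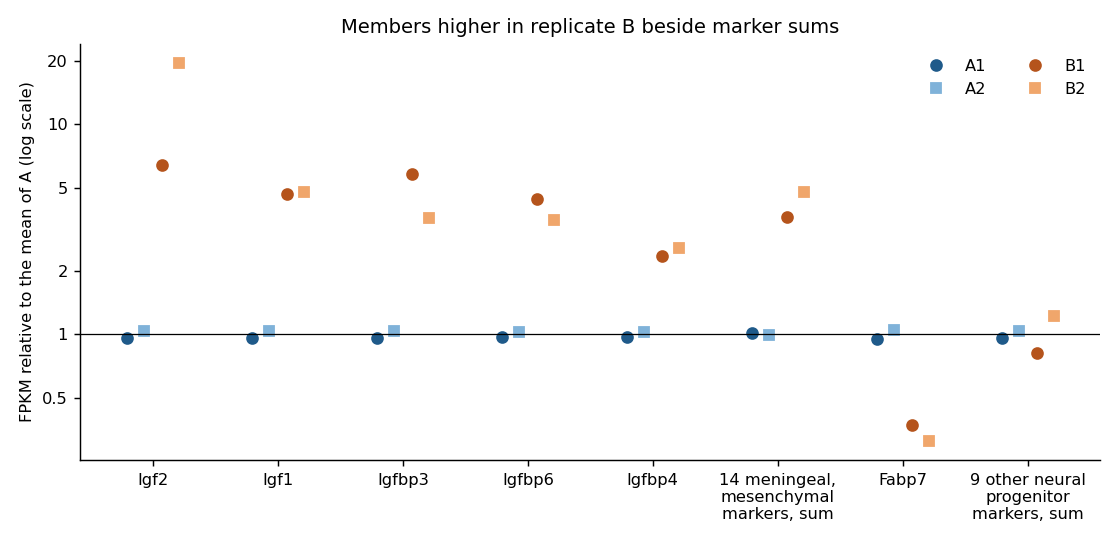
FPKM of the 5 members higher in replicate B, the summed FPKM of 14 meningeal and mesenchymal markers, *Fabp7*, and the summed FPKM of the other 9 neural progenitor markers, relative to the mean of replicate A (log scale), with 1 point per library. In B the mesenchymal sum lies at 3.62 and 4.77 and *Fabp7* at 0.369 and 0.310. The sum of the other progenitor markers, which is mostly *Vim*, lies there at 0.815 and 1.22, while *Igf2* reaches 6.44 in B1 and 19.6 in B2.

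The genes next to the members on rn6 varied in level and pattern, and *H19* was the only one of them to meet the rule. *H19*, the imprinted noncoding RNA of the *Igf2* locus, lies 81021 bp from *Igf2* on the same strand and had 19.9 FPKM in A1 and 20.4 in A2, against 163.7 in B1 and 105.3 in B2. Like *Igf2* it was higher in replicate B, by 2.68 on the log2(FPKM + 1) scale, but B1 was the higher of its 2 libraries of B whereas B2 was for *Igf2*. *Ins2*, the insulin gene 18757 bp away on the other side, had at most 1.28 FPKM, and *Mir483*, which lies inside *Igf2*, at most 0.146. Other imprinted genes of the growth pathway include *Igf2r*, given above, and *Grb10*, given below. *Igfbp1*, 3863 bp from *Igfbp3*, had at most 0.199 FPKM and was listed at 0 in B2, in contrast to its neighbour. *Tns4* beside *Igfbp4* and *Soat2*, 874 bp from *Igfbp6*, had at most 0.175 and 0.0225 FPKM. *Top2a*, the proliferation-linked topoisomerase gene on the other side of *Igfbp4*, had 8.84 and 9.09 FPKM in A and 10.9 and 18.98 in B, so both libraries of B lay above both of A, by 0.68 on the log2(FPKM + 1) scale. The highest neighbours were *Rpl37a-ps1*, 113031 bp from *Igfbp2*, with 232 to 445 FPKM, and *LOC100911576*, 1078255 bp from *Igfbp3*, with 290.0 to 397 FPKM. *Synm*, 202872 bp from *Igf1r*, had 15.8 to 28.6 FPKM. *Arhgef18*, 72916 bp from *Insr*, had 7.42 to 8.01 FPKM, and *Spryd3*, 11147 bp from *Igfbp6*, had 19.1 to 22.7 FPKM.

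The patterns most like those of *Igfbp2* and *Igf2* were looked for among the 6635 gene names with a mean of at least 10 FPKM, by the Euclidean distance of log2(FPKM + 1) centred on the gene over the 4 libraries. For *Igfbp2*, the member with the highest mean, the nearest were *Nrm*, *Tp53i11*, *Chsy1*, *Slc22a23* and *Sdc4*, at distances of 0.02 to 0.06. *Nrm*, the nuclear envelope gene nurim, had 15.2, 17.3, 16.7 and 28.3 FPKM in A1, A2, B1 and B2, so it too stood highest in B2. For *Igf2*, the member with the largest difference, the nearest were *Gjb2*, *Vtn*, *Tgm2*, *Cyr61* and *Gstm2*, at distances of 0.50 to 0.99. *Gjb2*, a connexin gene, had 7.53 and 7.41 FPKM in A and 40.8 and 105.1 in B. *Cyr61*, a secreted matrix-associated protein gene, had 15.4, 16.8, 63.9 and 148.1 FPKM. The 4 points of each gene share their libraries, and 4 points are few.

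The rest of the pathway was read from 54 fixed genes, of which 52 were listed and 44 reached a mean of 1 FPKM. Of the 44, 5 were higher in replicate B (11.4%, beside 4.78% of all names) and 1 was higher in replicate A (2.27%, beside 1.42%), and the median difference was 0.07. *Pappa2* and *Rictor* were not found under these symbols.

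Among the relatives of the ligands and receptors, *Insrr*, the insulin receptor-related receptor gene, had 0.423 FPKM in A1 and 0.254 in A2, against 1.61 in B1 and 2.42 in B2. It was higher in replicate B by 1.17, and by 0.96, under the threshold, without B2. *Ins1* was listed at 0 in A2, B1 and B2. Among the other binding proteins, *Igfbp7*, a low-affinity relative, was the highest, with 106.0 and 121.6 FPKM in A and 118.2 and 251.9 in B. It overlapped between A and B but was higher in replicate B, by 1.14, without B1. *Igfbpl1*, an IGFBP-like gene expressed in young neural cells, had 34.3, 38.7, 11.8 and 21.5 FPKM and was the only pathway gene higher in replicate A, by a log2 difference of -1.09 that fell short of the threshold without A2, at -0.999, and without B1, at -0.73. *Igfals*, the acid-labile subunit gene of the serum complex, had at most 0.0968 FPKM. Of 3 binding protein proteases and inhibitors compared none met the rule. *Htra1*, a secreted serine protease gene and the highest of them, had 40.1 and 41.5 FPKM in A and 20.3 and 56.7 in B. *Adamts1* had a difference of 0.97 and met the rule, at 1.03, without B2. *Pappa*, the protease gene for the *Igfbp4* product, had at most 0.371 FPKM.

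Of 12 receptor adaptors compared, 2 were higher in replicate B, beside 4.78% of all names, and 1 of these, *Irs1*, met the rule only narrowly. *Grb10*, an imprinted gene whose product inhibits insulin and IGF receptor signalling, had 6.11 FPKM in A1 and 6.40 in A2, against 25.6 in B1 and 29.2 in B2, a log2 difference of 1.97. *Irs1*, the gene of a main docking protein of the receptors, had 1.02, 1.08, 1.79 and 4.48 FPKM. Its difference of 1.01 fell to 0.99 without A1 and to 0.45 without B2, and it did not meet the rule in either case, nor with the mean of log2 values within a replicate. *Sh2b1*, the highest adaptor, had 58.4 to 72.9 FPKM with overlapping libraries.

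Of 19 genes of the PI3K, Akt and mTOR list, which carries the signal inside the cell, only *Eif4ebp1*, the gene of a translation repressor that mTOR phosphorylates, was higher in replicate B, beside 4.78% of all names. It had 44.6, 53.3, 104.2 and 110.2 FPKM, a difference of 1.11 that was 0.99 without A1. *Eif4ebp2*, its relative, reached 1.01 without B1. The median difference of the 19 genes was -0.07. *Rheb*, the GTPase gene that activates mTOR and the highest of the list, had 177.8 and 197.1 FPKM in A and 175.5 and 171.1 in B, and *Akt1* had 103.6, 95.2, 126.7 and 130.3 FPKM. None of the 5 compared Foxo, Gsk3 and Bad genes met the rule, and *Gsk3a*, the highest, had 52.1 to 69.3 FPKM. *M6pr*, the gene of the cation-dependent mannose 6-phosphate receptor, had 51.2 to 56.5 FPKM, with overlapping libraries.

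**Figure D5:**
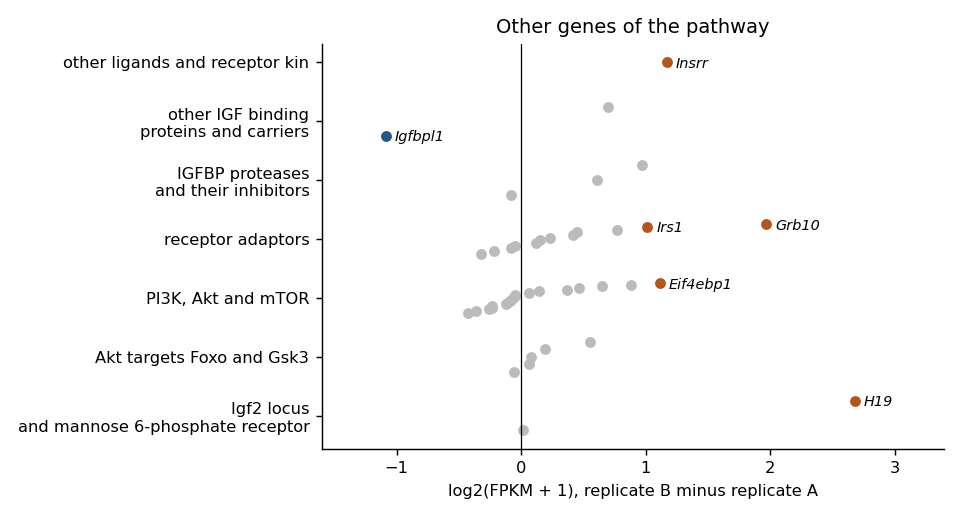
Difference of replicate B from replicate A on the log2(FPKM + 1) scale for the 44 pathway genes whose mean was 1 FPKM or more, 1 point a gene, by list, with labelled orange points counted as higher in B and blue as higher in A. *H19* at 2.68 and *Grb10* at 1.97 lie farthest to the B side and *Igfbpl1* at -1.09 farthest to the A side.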

How the data were processed

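PolyA-selected mRNA was measured in 4 RNA-seq libraries, grouped into biological replicates A and B by the sample labels. Start-seq, the other assay of the series, is not analysed here. The authors aligned the reads to rn6. The submitters' processing notes list cutadapt, HISAT, STAR and StringTie without versions or order, and the methods name Rsubread and DESeq2 for FPKM, so which tool made the FPKM is not settled by the sources used here. The authors deposited FPKM and TPM per gene, which were used as deposited. The deposited coverage is a mean read depth per gene that is not scaled to the library, and it was used only for depth and for 1 alternative. Reads were scaled within each library, so a gene's value depends on all other genes there.

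FPKM was summed over the entries of a gene name, technical libraries were averaged, and the mean and SD were taken over the 2 biological replicates. Differences are on log2(FPKM + 1), a pseudocount of 1, and shares and ratios between genes use TPM. No count test was run, since the deposited tables hold no counts. The members, the 54 pathway genes and the marker lists were chosen with earlier results of these data known. The genes named are all members, the pathway genes that met the rule or were highest in their list, the 2 genes next to each member (some of which are not reported here), and the 5 genes most like *Igfbp2* and *Igf2*; *Ins1*, *Adamts1*, *Igfals*, *Pappa*, *Eif4ebp2*, *Akt1* and *M6pr* were added after their values were seen. Alternatives were TPM, a pseudocount of 0.1, scaling by median of ratios, other limits of level and of difference, and each library or replicate left out. The mean of log2 values within a replicate and FPKM from coverage were added after seeing the data. Values were computed in Python 3.11.15 (numpy 2.4.6, pandas 2.3.3) and plots drawn with matplotlib 3.10.9.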

Additional observations from a re-analysis of the deposited data

Results flagged for a closer look

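The *Igfbp2* level in B2 stood apart from the other 3 libraries, with 2916 FPKM against 1606 to 1786 FPKM, a gap of 0.863 of the whole range, which is above Dixon's 95% critical value for 4 samples. The coverage per FPKM of the same library also stood apart, at 6.83 against 22.7 to 24.4 in the others, a gap of 0.906 of the range. These were 2 of 21 values examined in this way. Chance marks about 1 in 20 groups of independent samples, but these 4 libraries form pairs from the same replicate and are not independent.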

How the results depend on the processing

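Over 167 alternatives for 25 results none reversed a direction that met the rule. The 5 members higher in replicate B numbered 4 where means under 10 FPKM were left out (3.69% of all names), 6 at a log2 difference of at least 0.58 (9.51%), and 5 with each library left out in turn (3.67% to 6.35%). *Igfbp5* was the 1 member counted as higher in A at a log2 difference of at least 0.58 (6.95% of all names), and 0 to 1 members were counted there with each library left out (1.28% to 2.11%). Pathway genes higher in replicate B numbered 3 and 10 at the same limits (3.69% and 9.51% of all names) and 3 to 7 with each library left out, and those higher in A numbered 0 to 1, beside the same shares of all names, with the 7 and the 6.35% both without B1. A pseudocount of 0.1 raised the log2 difference to 2.23 for *Igf1*, 0.87 for *Igf1r* and 1.94 for *Igfbp6*. Without B2 the *Igf2* difference was 2.63, its mean level was 75.6 in place of 143 FPKM, and the *Insr* level was 1.28 FPKM. Of the 10 members, 9 kept 1 sign of the difference throughout, and *Insr* did not. Leaving out a biological replicate cannot move a mean of 2 by more than their SD, so that alternative says nothing of stability. No paired analysis was possible because no result comes from a test between groups. The depth of B2, 28.1% of B1, limits the low members most.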
